A study of Sorghum bicolor with 12 samples.

Results

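Of the 47205 sorghum transcripts measured in 4 successive stem internodes, 248 had a mean RPKM of at least 2 in Int4 and a mean RPKM below 1 in each of Int1, Int2 and Int3. RPKM is a read number corrected for the length of each transcript and for library size, and each mean was taken over 3 replicates. The 248 transcripts belonged to 238 of 34211 loci and made up 0.525% of all transcripts. The same limits applied with another internode as the high one gave 50 transcripts for Int1, 4 for Int2 and 12 for Int3. Since the RPKM values themselves chose these transcripts, their difference between Int4 and the younger internodes is given here as a description with no test.

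The internodes came from R.07020, a photoperiod-sensitive bioenergy inbred of Sorghum bicolor, which was kept vegetative under a 14 h photoperiod and harvested 60 days after planting. Int1 was the youngest internode below the shoot apex, Int2 and Int3 were the next ones down the stem, and Int4 was the oldest, which had finished elongating. Whole internodes were cut from 3 plants and gave 12 polyadenylated RNA libraries, 3 for each internode, with no treatment other than position on the stem. All 12 libraries share 1 genotype, 1 age and 1 growth chamber regime, and age of the internode and position on the stem cannot be told apart. In whole internodes, fewer cells of a type and less RNA per cell cannot be told apart either.

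In a grass stem the cells of an internode divide, then elongate, and then thicken and lignify their walls, so that successive internodes below the apex form a developmental series. The sclerenchyma around the vascular bundles and below the epidermis is lignified late, the epidermis is covered by a waxy cuticle, and the pith of sweet and bioenergy sorghums stores sugars. Phenylpropanoid enzymes supply lignin monomers, flavonoids and wall-bound phenolic esters, while lipid enzymes supply cuticle waxes, membrane sterols and the precursors of jasmonate.

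Summed over all transcripts, each library held between 467612 and 508319 RPKM, and depth relative to Int1 replicate 1 lay between 0.834 and 1.054. The summed RPKM of 42 annotated lignin biosynthesis transcripts, 3 of them among the 248, was 693 to 752 in the Int1 libraries and 3519 to 5710 in the Int4 libraries, while Int3 held 2981 to 4800 and overlapped with Int4. The summed RPKM of 12 photosynthetic light reaction transcripts lay between 149 and 208 in all 12 libraries. Both sets come from an incomplete copy of the study's table of differentially expressed transcripts, which was chosen on these libraries. Differences between internodes are therefore in part built into these sums. For 163 of the 248 transcripts the spacing of the low values gave the RPKM of 1 read, with a median of 0.0507, and by that measure a median of 61 reads stood behind such a transcript in an Int4 library and 9 in an Int3 library. The 78 of these with an Int4 mean below 3 RPKM rested on a median of 50 reads per Int4 library.

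The 248 transcripts were of low abundance in Int4. Their Int4 means ranged from 2.01 to 33.3 RPKM with a median of 3.01, and 121 lay below 3, another 71 below 5, another 38 below 10, and 18 at 10 or more. The medians of their means in Int1, Int2 and Int3 were 0.0733, 0.11 and 0.643 RPKM. Together they made up 0.204% to 0.255% of the summed RPKM of an Int4 library.

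**Figure D1:**
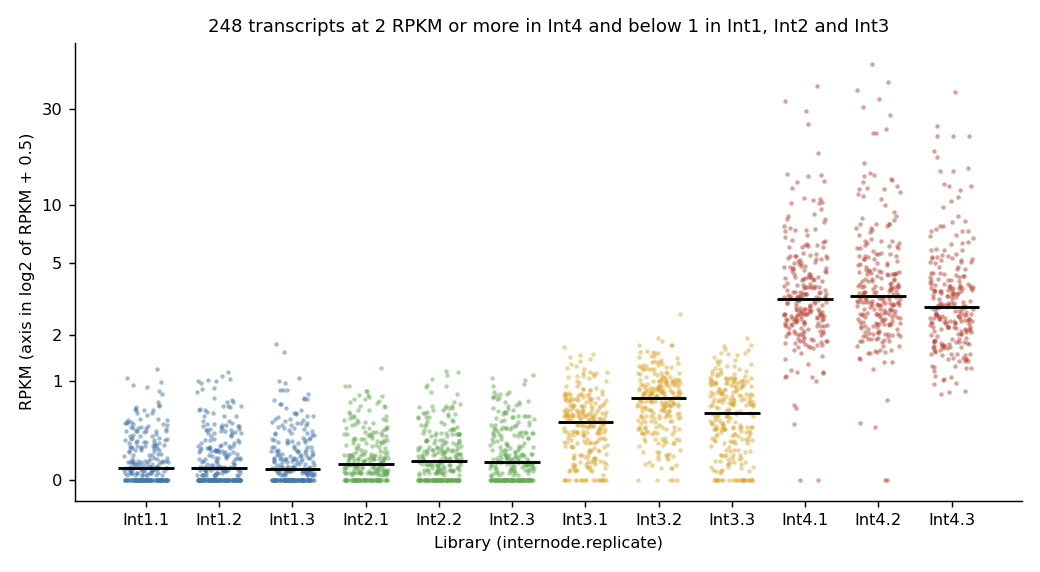
RPKM of the 248 transcripts in each of the 12 libraries, on an axis in log2 of RPKM + 0.5, with 1 point per transcript and a black bar at the median. The medians lie at 2.9 to 3.35 RPKM in the Int4 libraries, at 0.455 to 0.735 in the Int3 libraries and at 0.065 to 0.12 in the Int1 and Int2 libraries.

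The transcripts were not absent from the younger internodes. In 225 of the 248 the highest mean among the 3 younger internodes was that of Int3, against 16 for Int1 and 7 for Int2, and 216 were above 0 in all 3 Int3 libraries. No share over all tested transcripts is given beside these counts, so the lean to Int3 is not read as particular to the 248. Of the 248, 162 had an Int3 mean of at least 0.5 RPKM and 110 reached 1 RPKM in at least 1 of the 9 libraries of Int1, Int2 and Int3. At the other end, 12 had an Int3 mean below 0.1, 25 were listed at 0 in all 6 libraries of Int1 and Int2, and 2 were listed at 0 in all 9. The median ratio of the Int4 mean to the Int3 mean was 6.1 over the 245 transcripts with an Int3 mean above 0. It was at least 10 for 67 transcripts and below 3 for 36.

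Across the 3 Int4 libraries 144 of the 248 transcripts were at 2 RPKM or more in every library, 76 in exactly 2 and 28 in exactly 1. Every Int4 library exceeded every one of the 9 other libraries for 228 of the 248, beside 10.8% of all 26320 tested transcripts, a share that the choice of the transcripts fixes in large part. The median coefficient of variation over the Int4 libraries was 29.9%, and it exceeded 50% for 41 transcripts. For 12 transcripts at least 1 Int4 library was below 1 RPKM. With the limits required of every library rather than of the means, 79 of the 248 remained.

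The limits cut through a continuous range of values. Just inside the Int4 limit were Sobic.005G012200.4 and Sobic.006G135300.2, both at a mean of 2.007 RPKM in Int4, and Sobic.004G213600.1 at 2.01. Just outside it were Sobic.004G012200.1 at 1.997, Sobic.003G234500.1 at 1.983 and Sobic.004G231501.1 at 1.977. Just inside the limit for the younger internodes were Sobic.009G122400.1, with an Int3 mean of 0.997, and Sobic.006G217400.1 and Sobic.004G259900.1, both at 0.993. Just outside it were Sobic.006G075600.1, at 1.01 in Int1, and Sobic.010G037600.1 and Sobic.001G339300.1, both at 1.013 in Int3. Members on these edges differed from the non-members next to them by less than the spread of their replicates.

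The 20 transcripts with the highest Int4 means lay between 9.75 and 33.3 RPKM, and none had a description in the functional table used here, so they are reported by identifier. In all 20 every Int4 library exceeded every other library, which the limits and their high Int4 means fix in large part. The same held for 10.8% of all 26320 tested transcripts. In 14 of the 20 Int4 replicate 2 was the highest, beside 25.2% of the tested transcripts outside the 248. Sobic.009G244600.2 was at 25.36, 49.9 and 24.63 RPKM in the Int4 libraries and at 0 to 1.53 in the 9 others, and its Int4 mean was 33.3 ± 14.4 (SD, n = 3). Sobic.007G003600.1 was at 29.13, 33.64 and 22.07 in Int4 and at 0.04 to 0.45 elsewhere, and its Int4 mean of 28.28 ± 5.83 (SD, n = 3) was 84 times its Int3 mean. Both transcripts were high in all 3 Int4 libraries with no overlap with the other internodes.

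Several of the abundant transcripts were uneven among the Int4 libraries. Sobic.009G023401.1 was at 8.21, 40.51 and 22.09 RPKM in Int4, and at 2.64 in Int3 replicate 2 against 0.05 in each of the other Int3 libraries. Sobic.010G164200.1 was at 38.97, 11.99 and 7.04 in Int4 and at 0.29, 0.84 and 1.62 in Int3. Sobic.005G131700.1 was at 5.26, 28.04 and 3.58 in Int4. Thus the highest library was replicate 2 for the first and last of these and replicate 1 for the other. Sobic.005G046700.1 was at 32.72 and 14.14 in Int4 replicates 1 and 2 and at only 0.79 in replicate 3, a ratio of 41.4 between its highest and lowest Int4 library.

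A few transcripts met the limits through a single library. Sobic.005G215400.1 was listed at 0 in Int4 replicates 1 and 2 and at 21.98 RPKM in replicate 3, and Sobic.009G021600.1 was listed at 0, 0 and 6.43 in the same order. Sobic.006G132200.1 was at 0.65, 0.4 and 5.47. The means of these 3 transcripts rest on Int4 replicate 3, and no statement on Int4 as a group can be drawn from them. By contrast, Sobic.010G034900.1 was at 3.47, 3.65 and 3.61 RPKM in Int4, Sobic.004G170600.1 at 12.26, 13.09 and 12.48, and Sobic.001G073800.1 at 3.41, 3.15 and 3.15. These were, with Sobic.010G272000.3 and Sobic.001G500800.1, the most even of the 248, with a ratio of the highest to the lowest Int4 library of 1.05 to 1.12.

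Neighbouring loci were found among the selected transcripts, most of all on chromosome 6. Of the 238 loci, 9.66% had another selected locus within 3 loci of the annotation order, whereas 3.97% of the loci not selected had a selected locus that close. Selected loci at most 3 loci apart formed 9 pairs and 1 run of 5, from Sobic.006G025300 to Sobic.006G025700, with the unselected loci Sobic.006G025350 and Sobic.006G025550 inside it. Around this run a stretch of 22 loci from Sobic.006G024800 to Sobic.006G026600, delimited after its values were seen, held 8 of the 248 transcripts at 7 loci. None of its transcripts had a description in the table used, and members of a tandem array can be near-identical, so that reads may have been divided between them.

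Within this stretch both transcripts listed at 0 in all 9 libraries of the younger internodes were found. Sobic.006G024800.1 was at 13.99, 37.2 and 2.74 RPKM in the Int4 libraries, and Sobic.006G025400.1 was at 9.6, 6.52 and 12.44. The first varied 13.6-fold between Int4 libraries, the second 1.91-fold. Sobic.006G025700.1, the most abundant selected transcript of the stretch, was at 18.18, 30.7 and 36.23 RPKM in Int4 and was listed at 0 in every other library but Int3 replicate 2, where it was at 0.2. Sobic.006G025600.1 had the same pattern at 6.47, 12.43 and 17.37 in Int4 and 0.29 in Int3 replicate 2. Sobic.006G025500.1 was at 6.91, 13.49 and 18.67 in Int4 and at most at 0.59 elsewhere, and Sobic.006G026300.2 was at 10.85, 23.81 and 15.27 in Int4 and at most at 0.81 elsewhere. Sobic.006G025300.1 and Sobic.006G025300.2 were lower, with Int4 means of 2.68 ± 0.366 and 2.46 ± 0.223 RPKM (SD, n = 3) and Int3 means of 0.917 and 0.807.

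The selected transcripts were the smaller part of what was present at this stretch in Int4. Of its 19 other transcripts, 9 had an Int4 mean of at least 2 RPKM but a mean of at least 1 in a younger internode, and 10 had an Int4 mean below 2. Sobic.006G026100.1 was at 148.95, 366.3 and 259.2 RPKM in Int4 and at 1.12, 49.79 and 0.77 in Int3. Sobic.006G025900.2 was at 179.23, 299.34 and 316.5 in Int4 and at 0.17, 12.85 and 0.17 in Int3. In both, a single Int3 library, replicate 2, lifted the Int3 mean above 1. Sobic.006G026400.1, in contrast, was in all Int3 libraries, at 13.01, 28.92 and 22.21 RPKM, and at 88.4, 118.33 and 103.22 in Int4.

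Over the whole stretch the summed RPKM was 14.8 to 20.8 in the 6 libraries of Int1 and Int2. It was 29.8, 135.7 and 41.1 in the Int3 libraries and 713, 1363 and 1162 in the Int4 libraries. Int3 replicate 2 was thus above the other Int3 libraries and still below all Int4 libraries. In 18 of the 27 transcripts every Int4 library exceeded every other library, namely in the 8 selected ones, which the limits chose for this, and in 10 of the 19 others. The stretch was drawn around the selected loci, so nothing is read from these counts beside the 10.8% of all tested transcripts given above. The 8 selected transcripts of the stretch supplied 9.11% of the summed Int4 RPKM of the 248.

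**Figure D2:**
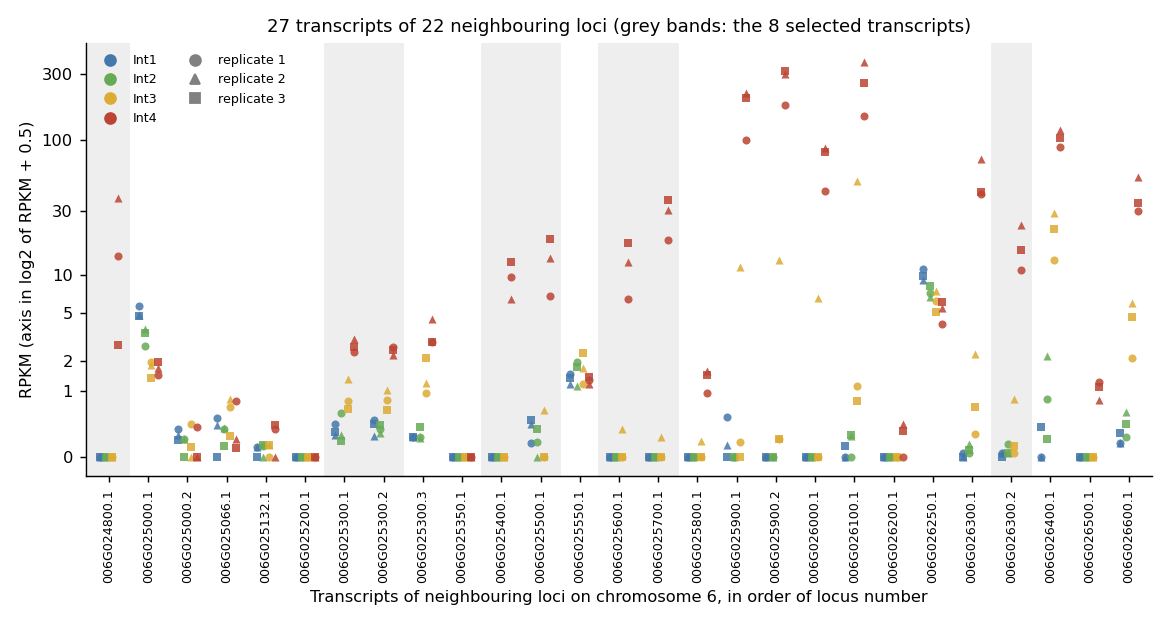
RPKM of the 27 transcripts at 22 neighbouring loci of chromosome 6 in the 12 libraries, on an axis in log2 of RPKM + 0.5, with colour for the internode, symbol for the replicate and grey bands for the 8 selected transcripts. The Int4 libraries reach 148.95 to 366.3 RPKM at Sobic.006G026100.1, and Int3 replicate 2 (yellow triangle) stands above the other Int3 libraries at Sobic.006G025900 to Sobic.006G026100.

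Functional descriptions were available for 24 of the 248 transcripts, from a table of differentially expressed transcripts that the study built by similarity to Arabidopsis proteins, and the other 224 had none in the copy used. That table was chosen on these libraries and the copy ends within the flavonoids, so the counts per category describe the 24 and not the 248. Secondary metabolism held 9 of the 24, lipid metabolism 7, and amino acid metabolism, cell wall and metal handling 2 each, with 1 in glycolysis and 1 in the glyoxylate cycle. Their Int4 means ranged from 2.08 to 9.56 RPKM. In 23 of the 24 every Int4 library exceeded every other library, beside 228 of the 248 and 10.8% of all 26320 tested transcripts. The choice of the transcripts fixes this count in large part. The exception among the 24 was Sobic.001G376501.1, a UDP-glucuronic acid decarboxylase (UXS), an enzyme that makes UDP-xylose for wall polysaccharides. It was at 2.66, 2.65 and 0.94 RPKM in Int4 and 0.53, 0.85 and 1.11 in Int3.

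Among the phenylpropanoid and flavonoid enzymes, Sobic.002G216400.1 was annotated as flavonoid 3'-hydroxylase, a cytochrome P450 that adds a hydroxyl group to the B ring of flavonoids. It was at 10.62, 11.17 and 6.46 RPKM in Int4, at 0.6, 0.89 and 0.46 in Int3 and at 0.04 to 0.41 in Int1 and Int2, and its Int4 mean of 9.42 ± 2.58 (SD, n = 3) was 14.5 times its Int3 mean. Sobic.010G066601.1 was annotated as hydroxycinnamoyl transferase (HCT), an acyltransferase on the route to the lignin monomers. It was at 8.46, 6.41 and 5.92 RPKM in Int4 and at 0.36, 1.2 and 1.27 in Int3. Sobic.002G242300.1 was annotated as caffeoyl-CoA O-methyltransferase (CCoAOMT), which methylates a lignin precursor, and was at 6.32, 8.05 and 4.67 RPKM in Int4 and at 0.5, 0.96 and 0.66 in Int3. The 3 transcripts did not overlap between Int4 and any younger internode.

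These transcripts were minor members of their families. The table listed 5 other transcripts under HCT, all with an Int3 mean of at least 1 RPKM and the most abundant at a mean of 112.9 in Int4. It listed 2 others under CCoAOMT, up to a mean of 375 RPKM in Int4, and 5 others under flavonoid 3'-hydroxylase, up to 67.5. RPKM is scaled to transcript length, so these levels can be set side by side. Sobic.001G500800.1, placed under 4-coumarate:CoA ligase (4CL) but most like an Arabidopsis peroxisomal enzyme that activates fatty acids, was at 2.42, 2.36 and 2.64 RPKM in Int4 and at 0.2 to 0.84 in the 9 other libraries.

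Of the other secondary metabolism transcripts, Sobic.001G407800.1, a 2-oxoglutarate-dependent oxygenase placed with the anthocyanin enzymes, was at 2.6, 2.17 and 3.33 RPKM in Int4 and was listed at 0 in all other libraries but Int3 replicate 2, where it was at 0.28. Sobic.010G034800.1, an HXXXD-type acyltransferase, was at 1.98, 2.32 and 1.99 in Int4 and 0.55, 0.52 and 0.38 in Int3. It adjoins Sobic.010G034900.1, the most even of the 248. Sobic.009G197901.1, an O-methyltransferase, was at 3.53, 2.54 and 4.09 in Int4, and Sobic.002G186600.1, of the strictosidine synthase-like family, at 2.42, 7.47 and 5.31. The first of these was at 1.24 RPKM in Int3 replicate 2 against 0.23 and 0.35 in the other Int3 libraries, the second at 1.34 against 0.72 and 0.66.

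The lipid enzymes covered wax, sterol and lipase functions. Sobic.002G207900.1, similar to Arabidopsis CER3, which takes part in the synthesis of cuticular wax alkanes, was at 5.46, 4.5 and 2.65 RPKM in Int4, at 0.44, 0.73 and 0.71 in Int3 and at 0 to 0.04 in Int1 and Int2. Of the 5 other transcripts listed under wax, 3 had an Int3 mean of at least 1 RPKM. Both transcripts of Sobic.003G173700, a sterol 4-alpha-methyl oxidase of the sterol pathway, were selected and were listed at 0 in all 6 libraries of Int1 and Int2. Sobic.003G173700.1 was at 2.57, 3.06 and 0.84 RPKM in Int4 and Sobic.003G173700.2 at 2.05, 3.36 and 1.09, so replicate 3 was the lowest for both. As transcripts of 1 gene they share reads and do not count as separate observations.

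Of the lipases, Sobic.005G111400.1, similar to the Arabidopsis chloroplast galactolipase DONGLE of basal jasmonate synthesis, was at 2.64, 4.41 and 2.72 RPKM in Int4 and at 0.8, 1.32 and 0.57 in Int3. Sobic.007G036900.1, similar to a galactolipase and phospholipase, was at 2.52, 2.02 and 1.8 in Int4 and 0.57, 0.74 and 0.2 in Int3. Sobic.007G194800.2, similar to an aphid-induced lipase of Arabidopsis, was at 3.44, 9.22 and 2.61 in Int4, with replicate 2 far above the others. It was also present earlier, at 1.22, 1.17 and 0.48 in Int2 and 0.41, 1.0 and 1.11 in Int3. Sobic.003G218500.1, a carboxylesterase, was at 3.74, 5.27 and 5.44 RPKM in Int4 and at 0.06 to 0.56 in all other libraries. Sobic.001G050300.1, a lipid transfer protein, was at 3.51, 1.89 and 1.73 in Int4 and reached 1.53 in Int3 replicate 3, close to its lower Int4 values.

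The remaining annotated transcripts were of primary metabolism, the cell wall and metal handling. Sobic.006G113900.1, of a heavy metal transport and detoxification family, was the most abundant of the 24 at 13, 11.37 and 4.32 RPKM in Int4 and 0.3, 0.38 and 0.59 in Int3. Sobic.003G271600.1, a germin-like protein of the apoplast, was at 4.49, 7.98 and 5.07 in Int4 and at 1.72 in Int3 replicate 2 against 0.28 and 0.84. Sobic.009G071800.1, a phosphofructokinase of glycolysis, was at 7.86, 4.67 and 4.38 RPKM in Int4 and at 0.41, 0.4 and 0.33 in Int3. It was at 0 to 0.04 in Int1 and Int2. Sobic.001G256700.1, a cystathionine gamma-synthase of methionine synthesis, was at 5.14, 5.4 and 4.47 in Int4 and 0.68, 0.75 and 0.26 in Int3.

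Sobic.001G056400.1 carries a tryptophan synthase alpha chain, whose Arabidopsis relatives make the indole of tryptophan, and was at 3.16, 2.17 and 2.3 RPKM in Int4 and 0.79, 0.95 and 0.98 in Int3. Its neighbour Sobic.001G056500.1, in the same category, was far more abundant, with means of 8.56, 11.5, 44.3 and 106.4 RPKM from Int1 to Int4. Sobic.006G127100.2, a malate synthase of the glyoxylate cycle, was at 3.29, 2.98 and 1.52 in Int4 and 0.25, 1.3 and 0.69 in Int3. Sobic.002G427400.1, a COBRA-like membrane-anchored wall protein, was at 2.37, 3.05 and 2.12 RPKM in Int4 and at 0 to 0.36 in all other libraries. The 5 other COBRA transcripts in the table all had an Int3 mean of at least 1 RPKM, up to an Int4 mean of 343.6.

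**Figure D3:**
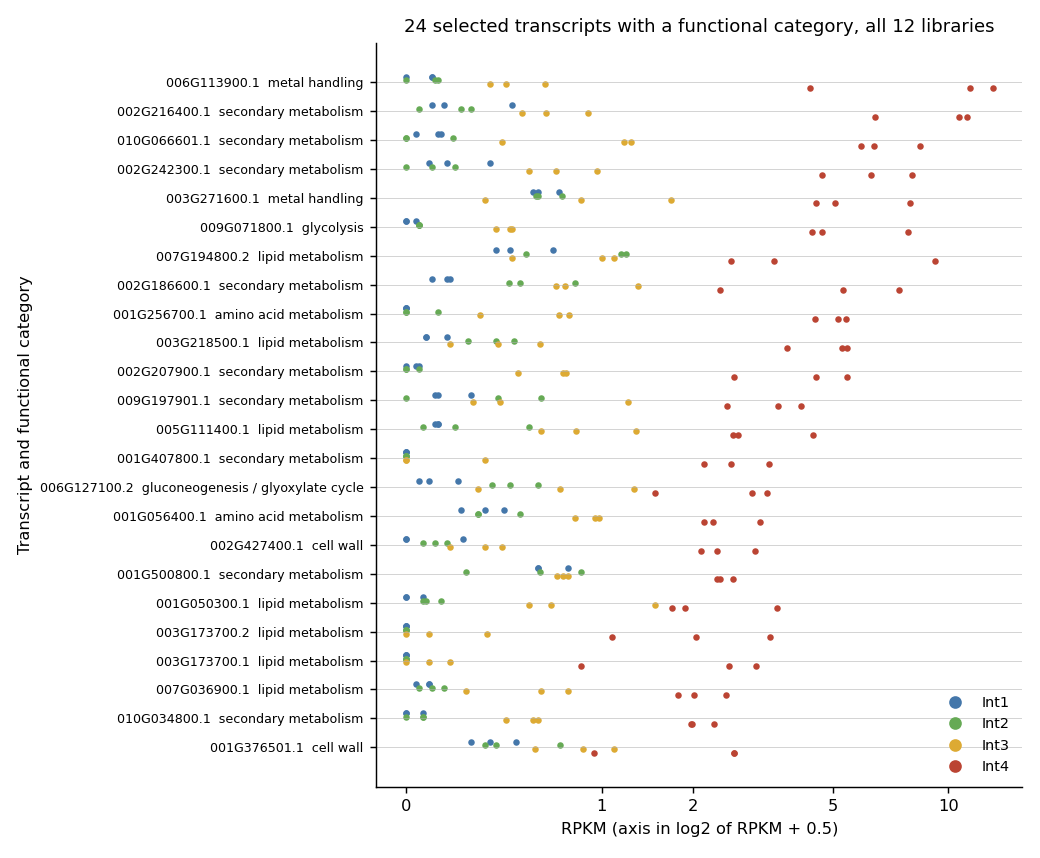
RPKM of the 24 selected transcripts with a functional category in all 12 libraries, on an axis in log2 of RPKM + 0.5, with 1 point per library coloured by internode and rows ordered by the Int4 mean. The Int4 libraries (red) lie above all others in 23 of the 24 rows, which the choice of the transcripts fixes in large part. The Int3 libraries (yellow) lie between Int4 and the younger internodes in most rows.

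Other transcripts with the same kinds of description were compared between Int4 and Int3 to show how the surroundings of these enzymes behaved. Function lists were made from words of the descriptions, with 446 transcripts outside the 248, and calls were made with limma where the adjusted p was under 0.001, the change 2-fold or more and either mean 2 RPKM or more. Of the 446, 28 rose and 38 fell, whereas over all 26320 tested transcripts 2.49% rose and 1.61% fell. The lists hold transcripts that the study selected as changing in these libraries, so higher shares than the background are built into them. The median log2 change of the 446 was -0.03 beside -0.13 for all tested transcripts. With each library scaled by its median ratio the median of all transcripts moved to 0.00, and 40 of the 446 rose and 27 fell beside 3.28% and 1.23% of all transcripts, so the balance between rises and falls depends on the scaling. The 66 calls became 10 with the Int3 and Int4 libraries alone and 110 at an adjusted p under 0.05.

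In the list of phenylpropanoid, lignin and dirigent enzymes, 6 transcripts were among the 248, and of the 62 others 7 rose, 2 fell and 53 were not called, with a median log2 change of 0.38. In the list of lipid and cuticle enzymes, with 7 of the 248, 8 of the 127 others rose and 7 fell, with a median of -0.02. In the list of glycosyl hydrolases and cell wall enzymes, with 2 of the 248, 7 of 158 rose and 21 fell, with a median of -0.30. In the list of defence proteins, with 3 of the 248, 3 of 28 rose and 3 fell. The other 10 lists held at most 3 of the 248 each, and in none of them did more than 2 other transcripts rise. Over all tested transcripts 2.49% rose and 1.61% fell, with a median log2 change of -0.13. The listed transcripts were chosen by the study as changing in these libraries, and the balance of rises and falls depends on the scaling. No direction is therefore read from any list. Since the lists follow words of the descriptions, a list name need not give the function of each transcript in it. The defence list held the cystathionine gamma-synthase Sobic.001G256700.1, and the cytochrome P450 list held both transcripts of the sterol methyl oxidase Sobic.003G173700.

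The limits held the Int1, Int2 and Int3 means below 1 RPKM without setting their order, so these internodes are also described with no conclusion from a test. The Int3 mean was above the Int1 mean in 231 of the 248 transcripts and above the Int2 mean in 236, and the Int2 mean was above the Int1 mean in 143. The means were higher at each step from Int1 to Int4 in 136. No share over all tested transcripts is given beside these counts either. All 248 entered the fit, which required a mean of at least 1 RPKM in an internode, and each of them did so through Int4 alone. At a pseudocount of 0.5 the limits allow a difference of at most 1.58 on the log2 scale between 2 of the younger internode means.

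For completeness, limma on log2(RPKM + 0.5), with Benjamini-Hochberg adjustment over 26320 transcripts, placed 143 of the 248 higher in Int3 than in Int1 at an adjusted p under 0.05 and 0 lower, with a median log2 difference of 0.75. The same fit placed 24.6% of all tested transcripts higher and 30.3% lower. Against Int2, 118 were higher in Int3 and 0 lower, with a median of 0.69, while 20.1% of all tested transcripts were higher and 21.3% lower. Most other tested transcripts were not bound to low levels in the internodes compared, so nothing about the 248 is read from these shares. Without Int3 replicate 2 the counts were 115 against Int1, beside 22.5% of all transcripts, and 93 against Int2, beside 17.2%. The 3 libraries of an internode are separate plants, and the model treats the internodes of a plant as independent.

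In some transcripts the Int3 libraries stood clear of both younger internodes. Sobic.010G034900.1 was listed at 0 in all 6 libraries of Int1 and Int2 and was at 0.63, 1.21 and 0.93 RPKM in Int3. Sobic.003G426500.1 was likewise listed at 0 in all 6 and was at 0.56, 0.54 and 0.83 in Int3. Sobic.004G181300.1 was at 0.73, 0.71 and 1.03 in Int3, at 0.1 in each Int2 library and at 0 in Int1. These 3 were thus present at low levels in every Int3 library. Sobic.005G127800.1 was at 0.78, 0.75 and 0.77 in Int3 against 0.04 to 0.29 in Int1 and Int2, and Sobic.001G276100.1 at 0.58, 0.76 and 0.78 against 0 to 0.04. Sobic.001G525900.2, Sobic.001G330925.1 and Sobic.001G195100.1 also had all Int3 libraries above all Int1 and Int2 libraries.

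The annotated enzymes differed in how much of them was present in Int3. HCT (Sobic.010G066601.1) was at 0 to 0.15 RPKM in Int1 and Int2, below its Int3 values of 0.36, 1.2 and 1.27, and the CER3-like wax transcript (Sobic.002G207900.1) and the lipid transfer protein (Sobic.001G050300.1) had the same order. The sterol methyl oxidase (Sobic.003G173700.1), at 0, 0.07 and 0.14 in Int3, and the 2-oxoglutarate-dependent oxygenase (Sobic.001G407800.1), at 0, 0.28 and 0, were at or close to 0 there as well.

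Between Int1 and Int2 the same fit placed 1 of the 248 higher in Int2 and 0 lower, and 7.52% and 5.17% of all tested transcripts. This was Sobic.004G351200.2, 1 of 3 selected transcripts of its gene, which share reads, at 0.04, 0 and 0 RPKM in Int1 and 0.78, 0.28 and 0.14 in Int2. With limma 11 of the 248 had an unadjusted p under 0.05. The deviations of same-numbered Int1 and Int2 libraries were correlated, and with the replicate number as a block over all 12 libraries 0 were called. The count was 11 with a pseudocount of 0.1 and 7 with the Int1 and Int2 libraries alone, so no statement is drawn from it.

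The replicates of Int3 and Int4 were not alike for these transcripts. Of the 248, 20, 59 and 42 were at 1 RPKM or more in Int3 replicates 1, 2 and 3, and 45 reached 1 in replicate 2 of Int3 alone. The summed RPKM of the 248 was 118, 184 and 146 in the Int3 libraries, against 39.5 to 49.8 in the libraries of Int1 and Int2, and 1083, 1288 and 1014 in the Int4 libraries. Int3 replicate 2 held the highest Int3 value for 127 of 243 transcripts with a single highest library, or 52.3%, whereas it did so for 32.9% of the other tested transcripts. In Int4, replicate 2 was highest for 45.2% of the 248 and for 25.2% of the others, while replicate 3 was highest for 20.2% and 46.1%.

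In 77 transcripts replicate 2 was the highest in both Int3 and Int4. The same replicate number was highest in both internodes for 44.4% of the 248 and for 25.7% of the other tested transcripts. Over all tested transcripts the deviations of Int3 and Int4 libraries numbered 1 and numbered 3 ran opposite (r of -0.233 and -0.339), while replicate 1 of each ran with replicate 3 of the other (0.334 and 0.374), and this bears on the 25.7%. Without the 8 transcripts of the chromosome 6 stretch, an alternative chosen after seeing the data, Int3 replicate 2 was highest for 121 of 237 and the Int3 sums were 116.1, 179.3 and 144.4. The relative depth of Int3 replicate 2 was 0.868, against 0.834 and 0.845 for the other Int3 libraries, and its summed lignin biosynthesis RPKM of 3419 lay between theirs, at 2981 and 4800. The part of the plant, of the exact stage of the internode or of the library preparation in this difference was not tested.

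**Figure D4:**
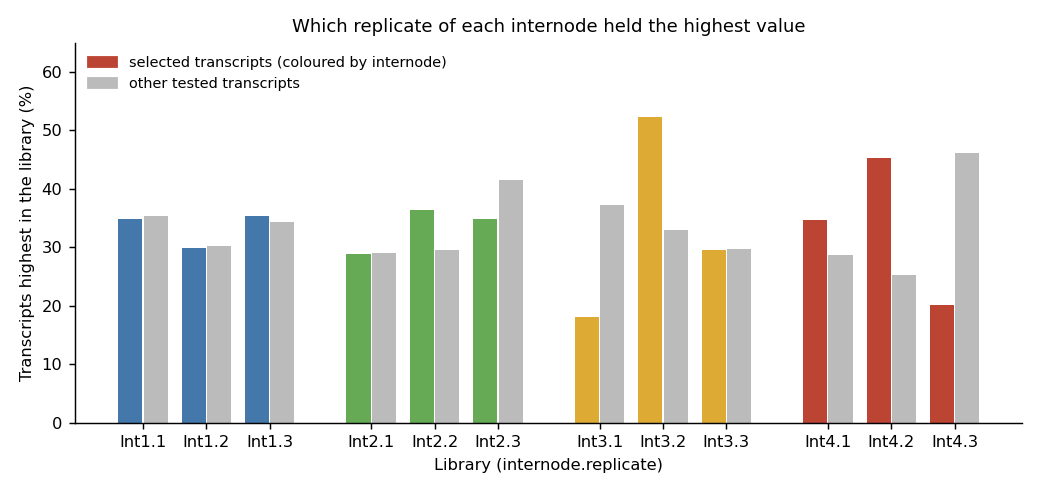
Percent of transcripts with their highest value in each replicate of an internode, for the 248 selected transcripts (coloured) and the other tested transcripts (grey), leaving out those with no single highest library. Replicate 2 holds 52.3% of the selected transcripts in Int3 and 45.2% in Int4, against 32.9% and 25.2% of the others. In Int2 replicate 2 holds 36.4% against 29.5%, a smaller gap in the same direction, and the Int1 libraries show no such gap.

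A selected transcript can be below 1 RPKM in the younger internodes while its gene is not. Of the 248, 190 came from genes with 1 annotated transcript and 58 from genes with several, which is 23.4% beside 42.1% of all transcripts. When the RPKM of all transcripts of a gene was summed, the sum was below 1 in Int1, Int2 and Int3 for 212 of the 248. For the other 36, from 30 genes, the sum reached 1 RPKM in a younger internode. At Sobic.004G351200 and Sobic.002G233400 all transcripts in the sum were selected ones, so no further transcript contributed. In 28 of the 36 the summed gene RPKM in Int4 was at least 2 times that in Int3. In this count and in the median ratio, a gene with several selected transcripts enters more than once. The median ratio over the 36 was 3.58, beside 3.93 for the selected transcripts themselves. Each sum contains the selected transcript, chosen for a high Int4 mean, so part of this ratio is built in. The share of reads given to each transcript of such a gene depends on how reads common to several transcripts were placed, so the selected transcript is less certain than the sum.

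Sobic.004G213600.1 was a minor transcript of a gene present in all internodes. The transcript was at 2.56, 0.44 and 3.03 RPKM in Int4, while its gene summed to 16.8 ± 0.56 and 16.7 ± 0.347 in Int1 and Int2, and to 40.4 ± 1.8 and 47.4 ± 2.91 in Int3 and Int4 (SD, n = 3). The gene of Sobic.005G012200.4 and Sobic.005G012200.6 was higher at each internode, from 4.86 ± 0.29 in Int1 to 6.36 ± 0.32, 12.5 ± 0.69 and 22.4 ± 1.93 in Int4. These genes were present in all 12 libraries and their sums differ from the pattern of the selected transcripts.

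Among the other genes shown, the ratio of the Int4 sum to the Int3 sum ranged from 1.8 to 32.7. Sobic.004G017800 summed to 10.1 ± 4.41 in Int3 and 37.1 ± 6.11 in Int4, and its transcript Sobic.004G017800.2 was at 2.09, 1.95 and 4.65 RPKM in Int4. Sobic.001G353400 was at 0.0533 ± 0.0231 in Int1 and 6.95 ± 3.33 in Int3 and 13.3 ± 6.33 in Int4, so that it was present from Int3 on with a wide spread between plants. The gene of the abundant Sobic.009G244600.2 summed to 1.51 ± 0.886 in Int2, 1.5 ± 2.32 in Int3 and 49.0 ± 16.8 in Int4, and its Int3 sums were 0.11, 4.17 and 0.21, high in replicate 2 alone. The gene of Sobic.001G500800.1, the transcript placed under 4CL but most like a fatty acid activating enzyme, was present throughout. It summed to 4.54 ± 0.883, 3.38 ± 0.547, 5.10 ± 1.01 and 9.17 ± 1.11 from Int1 to Int4.

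**Figure D5:**
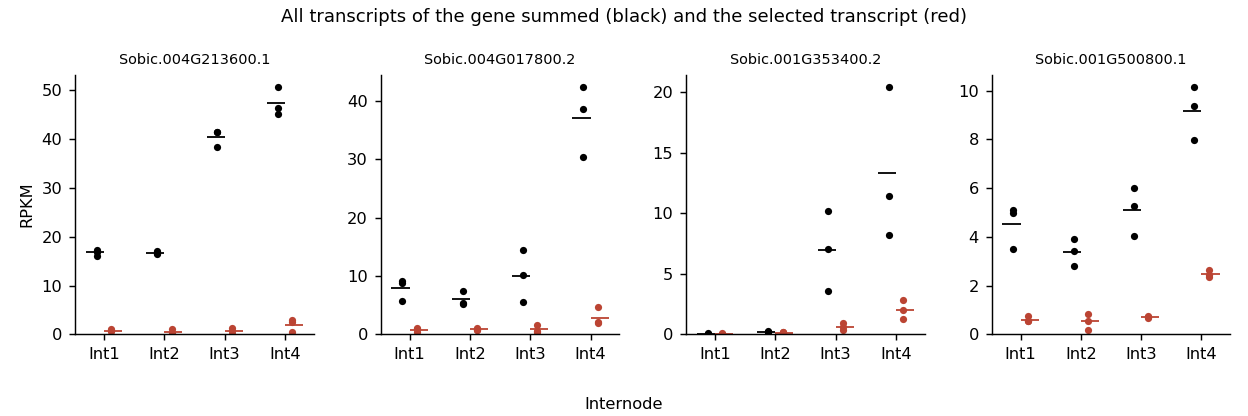
RPKM of 4 selected transcripts (red) and of all transcripts of their genes summed (black) in the 4 internodes, with 1 point per library and a bar at the mean of the 3 replicates. The gene sum of Sobic.004G213600.1 is at 16.8 RPKM in Int1 and 47.4 in Int4 while the transcript itself stays at or below 3.03, and the gene sum of Sobic.001G353400.2 is near 0 in Int1 and Int2.

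The selected transcripts were spread over all 10 chromosomes. Chromosomes 1 and 3 held 41 each, and the share of a chromosome's transcripts that were selected ranged from 0.34% on chromosome 5 to 0.766% on chromosome 7, apart from chromosome 8. There only 2 of 2815 transcripts were selected, or 0.071%. With its stretch of neighbouring loci, chromosome 6 held 27 of 4134, or 0.653%. These shares are given with no test.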

How the data were processed

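The authors mapped the reads to the Sorghum bicolor v3.1 transcripts with the CLC Genomics Workbench, whose edgeR module they used for their own tests, and deposited RPKM for 47205 transcripts and 12 libraries with 2 decimals. Versions of these programs are not given in the sources used here. The deposited table holds no read counts or library totals, the read totals that the study gives per internode were not used, and relative depth and reads per value were estimated from the spacing of low RPKM values (163 of 248 transcripts gave a step, with a tolerance of 0.0075 RPKM for a whole number of reads).

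Internode and replicate were taken from the column titles. Means, SDs and counts were computed with Python 3.11.15, numpy 2.4.6 and pandas 2.3.3, and plots were made with matplotlib 3.10.9. Values were transformed to log2(RPKM + 0.5), which understates the change of low transcripts. The 26320 transcripts with a mean of at least 1 in an internode entered a linear model of the 12 libraries by internode with a trended prior (R 4.3.3, limma 3.58.1). Calls used Benjamini-Hochberg adjusted p values, under 0.05 between Int1, Int2 and Int3 and, for the function lists in Int4 against Int3, under 0.001 with a 2-fold change and a mean of 2.

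The deviations of Int1 and Int2 libraries with the same number were correlated across transcripts (r of 0.130, 0.104 and 0.137). In no other comparison did all 3 such pairs correlate, and between Int3 and Int4 same-numbered replicates 1 and 3 ran opposite. The replicate block was fitted to all 12 libraries with 1 shared effect per replicate number. It is therefore not a block suited to Int1 and Int2 alone, and its counts are given only as an alternative.

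The transcripts, the lists and the tests were chosen with earlier results of these data known. Transcripts were named by rule: the 20 highest in Int4, those at 0 in the 9 other libraries, up to 5 of each function list, runs of 3 or more loci at most 3 loci apart, up to 5 called in each comparison, up to 5 whose gene was present earlier, the 5 most and least even in Int4, and those 3 on either side of each limit. The other annotated transcripts, the stretch of chromosome 6 and its neighbours were named after their values were seen. Descriptions came from a table of the study, of which 770 transcripts were used and 6972 entries were left out. Promoter motifs and most cell type markers are not analysed here. The alternatives tried were other pseudocounts, no filter, median-ratio scaling, the 2 internodes alone, a replicate block, other limits and leaving out each library.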

Additional observations from a re-analysis of the deposited data

How the results depend on the processing

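The number of selected transcripts, 248, stayed within 1.5 times under 3 of 7 other settings and was 226 to 275 with single libraries left out, the lowest without Int3 replicate 1 and the highest without Int3 replicate 2. It was 79 with the limits required of every library, 56 with an Int4 minimum of 5, 758 with an Int4 minimum of 1 and 80 with a limit of 0.5 in the younger internodes, so the count follows the limits by construction. With an Int4 minimum of 1, 236 of the 248 met it in all 3 Int4 libraries in place of 144. The 212 transcripts with a low gene sum were 178 to 212 with single libraries left out.

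The single call between Int2 and Int1 was 11 with a pseudocount of 0.1, 7 with the libraries of these internodes alone, and 0 with a pseudocount of 1, with no filter, with median-ratio scaling and with the replicate block. It was 0 to 4 with single libraries left out, at 1 only without Int4 replicate 2 or Int4 replicate 3, at 4 without Int2 replicate 3, and at 0 without any other. The cause was not tested. The calls of Int3 against Int1 were 114 to 151 and those of Int3 against Int2 were 93 to 128 with single libraries left out. All 7 other settings of each gave counts within 1.5 times. With the replicate block they were 138 and 118. That fit placed 24.2% of all tested transcripts higher and 29.7% lower against Int1, and 19.3% and 20.3% against Int2. The selected transcripts entered these fits through Int4 alone, with their Int1, Int2 and Int3 means held below 1 RPKM by the limits. Nothing about them is therefore read from these counts or from how little the counts moved. In 45 to 69 of the 446 listed transcripts Int4 against Int3 was called with single libraries left out, in place of 66, and in 55 with the block. It was 110 at an adjusted p under 0.05 and 10 with the Int3 and Int4 libraries alone, a fit with fewer samples to estimate the spread. The Int4 means of the 64 transcripts named by rule moved by less than 1 SD in 51 with median-ratio scaling and in 48 with gene sums. With 3 replicates a median or a left-out library cannot move a mean by 1 SD, so these settings say nothing of its stability.

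Low values limit these results: between Int1, Int2 and Int3 most of the 248 rest on a few reads, and 3 plants per internode do not separate plant from library.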
